A study of Homo sapiens with 3 samples.

Results

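Distal peaks of estrogen-related receptor gamma (ERRγ, gene ESRRG) centred in long terminal repeat (LTR) elements made up 1036 of the 15223 peaks in the merged ERRγ peak list of BT-474 cells. A peak was taken when the authors' detailed annotation placed its centre in a repeat of the LTR class and the nearest transcription start site (TSS) lay more than 10 kb away. Of 1159 LTR peaks at any distance, 1036 met this rule and 123 lay within 10 kb. BT-474 cells are an established line from a human breast tumour, luminal in type and with amplified ERBB2. The list came from 2 ERRγ chromatin immunoprecipitation (ChIP-seq) libraries, made with a custom antibody from the Evans laboratory, with 1 input DNA library as control. All libraries came from vehicle-treated cells 90 min after the medium was renewed, under basal conditions. The deposited table gave 1 merged list on hg19 with no value per library, so that the depth is unknown and there was no replicate spread. Peaks of 1 list are not replicates, so no p-value is given. Intervals of shares are exact Clopper-Pearson 95% intervals and cover counting error only. Intervals of medians are 95% intervals between ranked scores, with the ranks taken from the binomial distribution. These do not cover replicate spread either.

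LTR elements are the remains of retroviruses and retrovirus-like transposons that entered the germline. An intact provirus carries an internal part with the viral genes between a pair of LTRs, and the LTR holds the viral promoter and enhancer. Most copies in the human genome are solitary LTRs left after recombination between the pair. The families named by the annotation are ERV1 (related to gammaretroviruses), ERVK (related to betaretroviruses), ERVL and the ERVL-MaLR elements, which lack most viral genes. ERRγ is an orphan nuclear receptor that binds DNA as a monomer or dimer at an extended form of the nuclear receptor recognition sequence, and many nuclear receptors are known to have sites inside such repeats.

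LTR elements held 1036 of 12257 distal peaks (8.45%, 95% interval 7.97 to 8.96), against 123 of 2966 peaks within 10 kb of a TSS (4.15%, 3.46 to 4.93). Among distal peaks in repeats of any class, 1036 of 4587 were in LTR elements (22.6%). LINE elements held 1916 distal peaks (15.6%), SINE elements 1216 (9.92%) and DNA transposons 316 (2.58%). The genomic length covered by each class was not used here, so these shares do not say whether a class was bound more or less often than its length would give. Because the annotation reads the peak centre only, and the median LTR peak was 1164 bp wide, a peak may also cover sequence outside the element.

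The LTR share of distal peaks was nearly flat over the range of scores and higher in the most remote peaks. The deposited score is the authors' value for each peak. Its unit is not known, and it is used below only to rank peaks within this list. In the 20% of distal peaks with the highest scores, 197 of 2452 were in LTR elements (8.03%, 6.99 to 9.18), and in the 20% with the lowest, 196 of 2451 (7.997%, 6.95 to 9.14). The classes between them held 8.45% to 8.94%. By distance, the share was 8.18% at 10 to 50 kb (7.38 to 9.02), 7.78% at 50 to 100 kb (6.77 to 8.89) and 8.38% at 100 to 500 kb (7.56 to 9.25). Beyond 500 kb, 118 of 1009 peaks were in LTR elements (11.7%, 9.78 to 13.8), and the interval of this class lay above the other 3. That interval includes the LTR share over all distal intergenic peaks, 10.98%. The part of intergenic location in this higher share was not tested.

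**Figure D1:**
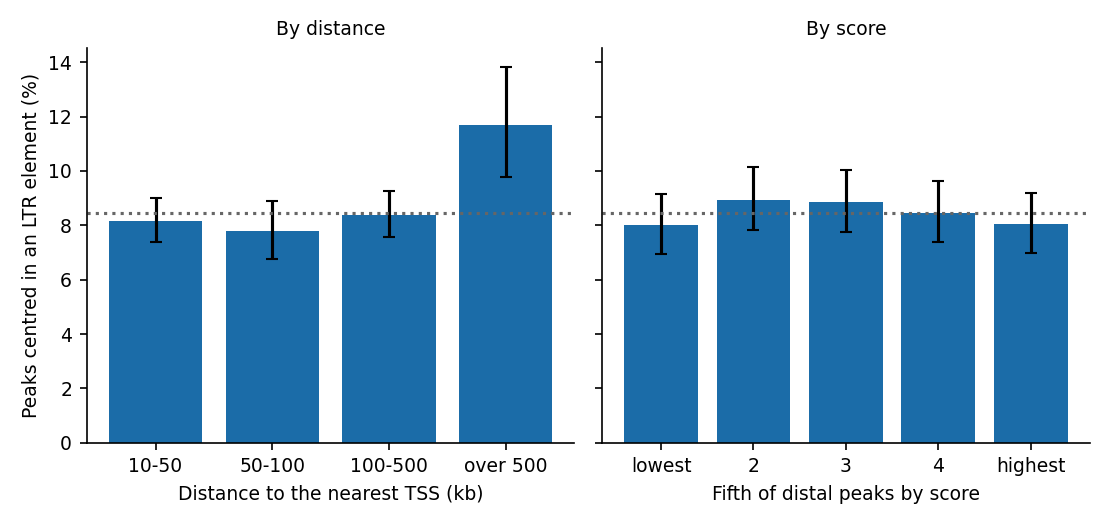
Share of distal ERRγ peaks centred in an LTR element, by distance to the nearest TSS (left, kb) and by equal classes of the distal peaks in order of score (right), with exact 95% intervals as error bars and the share over all distal peaks as a dotted line. The share was 8.18%, 7.78% and 8.38% in the nearer distance classes and 11.7% beyond 500 kb, while the score classes lay between 7.997% and 8.94%.

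Distal LTR peaks were more often intergenic than other distal peaks. The authors' annotation called 779 of 1036 distal LTR peaks intergenic (75.2%, 72.5 to 77.8), against 6317 of 11221 other distal peaks (56.3%, 55.4 to 57.2). The other 257 LTR peaks were intronic, and none had an exon, untranslated-region or transcript-end annotation. Counted the other way, LTR elements held 779 of 7096 distal intergenic peaks (10.98%, 10.3 to 11.7) and 257 of 4954 distal intronic peaks (5.19%, 4.59 to 5.84). Distal LINE, SINE and DNA transposon peaks were intergenic in 63.0%, 52.7% and 59.5% of cases. The median distance to the nearest TSS was 86.5 kb for distal LTR peaks and 77.7 kb for other distal peaks. Among intergenic peaks the order was reversed, at 99.45 kb for LTR peaks and 110.8 kb for the others. Among intronic peaks the medians were 62.99 kb and 58.5 kb. Distal LINE, SINE and DNA transposon peaks had medians of 102.1, 60.6 and 90.6 kb. Within the intergenic peaks, 61.6% of the LTR peaks and 60.3% of the others lay upstream of the nearest TSS.

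In peak strength, distal LTR peaks stood close to the other distal peaks and above the LINE peaks. The median score was 101.2 over distal LTR peaks (quartiles 67.8 and 204) and 101.5 over other distal peaks (67.4 and 210). It was 81.4 over distal LINE peaks, 110.5 over distal SINE peaks, 107.2 over distal peaks outside repeats and 106.3 over all peaks. A score of 592 or more marked the top 10% of all peaks, which by construction held 10% of the list. Of the distal LTR peaks, 85 were in it (8.205%, 6.61 to 10.05), against 1023 of 11221 other distal peaks (9.12%, 8.59 to 9.67). In the top 5% of all peaks, which held 5.01% of the list, were 39 distal LTR peaks (3.76%, 2.69 to 5.11). The top 10% share was 4.70% for distal LINE peaks (3.79 to 5.74), whose interval did not meet that of the LTR peaks, and 9.87% for distal SINE peaks (8.25 to 11.7). At a score of 3100 or more stood 11 distal LTR peaks, within 175 such peaks in the list (1.15%). All 11 scored exactly 3100, a value that 158 peaks share, so their order has no meaning.

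**Figure D2:**
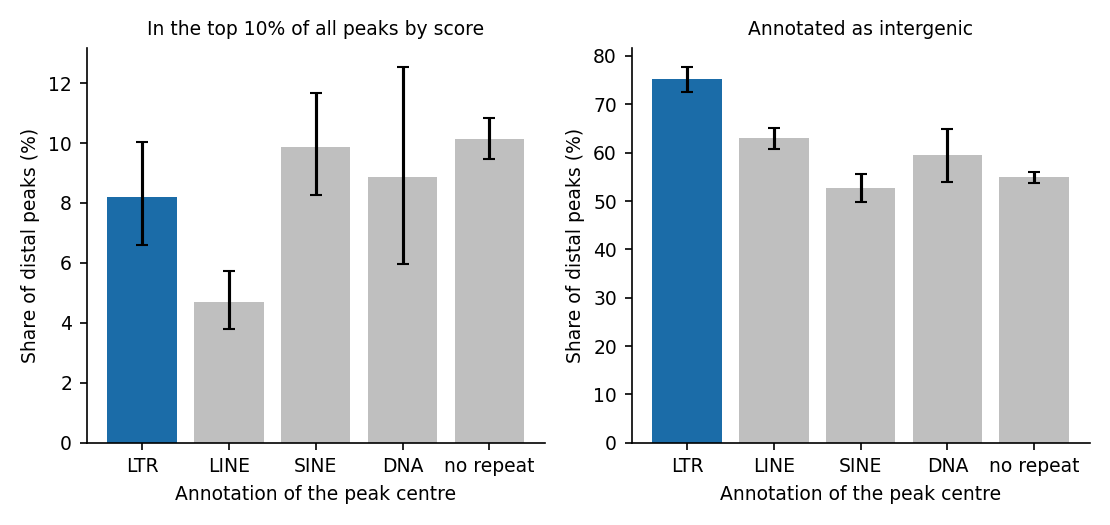
Share of distal ERRγ peaks in the top 10% of all peaks by score (left) and share annotated as intergenic (right), in percent, for peaks centred in LTR, LINE, SINE or DNA elements or in no repeat, with exact 95% intervals. LTR peaks had 8.21% in the top 10%, against 4.70% for LINE peaks, and 75.2% of them were intergenic, against 52.7% to 63.0% in the other classes.

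The ERV1 family held the most distal LTR peaks, 445 of 1036 (42.95%, 39.9 to 46.0). ERVL followed with 257 (24.8%, 22.2 to 27.6), ERVL-MaLR with 236 (22.8%, 20.3 to 25.5) and ERVK with 78 (7.53%, 5.997 to 9.31). Elements related to Gypsy retrotransposons held 17 (1.64%, 0.959 to 2.61), or 8 (0.7805%) when the entries that the annotation marks with a question mark are left out. A further 2 peaks had no family below the class, and 1 was listed only as ERV. Element copy numbers in the genome were not used here, so the counts below are numbers of peaks and not rates per copy.

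Among the 4 larger families the median score was lowest in ERVL-MaLR and highest in ERV1, while the upper quartile was highest in ERVL. The median was 114 in ERV1 (quartiles 71.1 and 223), 100.3 in ERVL (67.2 and 233), 102.9 in ERVK (65.6 and 188) and 88.2 in ERVL-MaLR (64.8 and 154). The 95% intervals of the medians of ERV1, ERVL and ERVK overlap. That of ERVL-MaLR (82.3 to 97.3) also overlaps those of ERVL (89.3 to 123.5) and ERVK (79.75 to 125.6). It lies below that of ERV1 only (102.2 to 125.9). In the top 10% of all peaks were 39 ERV1 peaks (8.76%, 6.31 to 11.8), 25 ERVL peaks (9.73%, 6.395 to 14.02), 7 ERVK peaks (8.97%, 3.69 to 17.6) and 13 ERVL-MaLR peaks (5.51%, 2.97 to 9.24). The intervals overlap, so no order of the families follows from these shares. The Gypsy-related peaks had a median of 69.3, with 1 of 17 in the top 10%, an LTR85b peak of 641 near SEL1L, a gene of protein quality control in the endoplasmic reticulum.

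**Figure D3:**
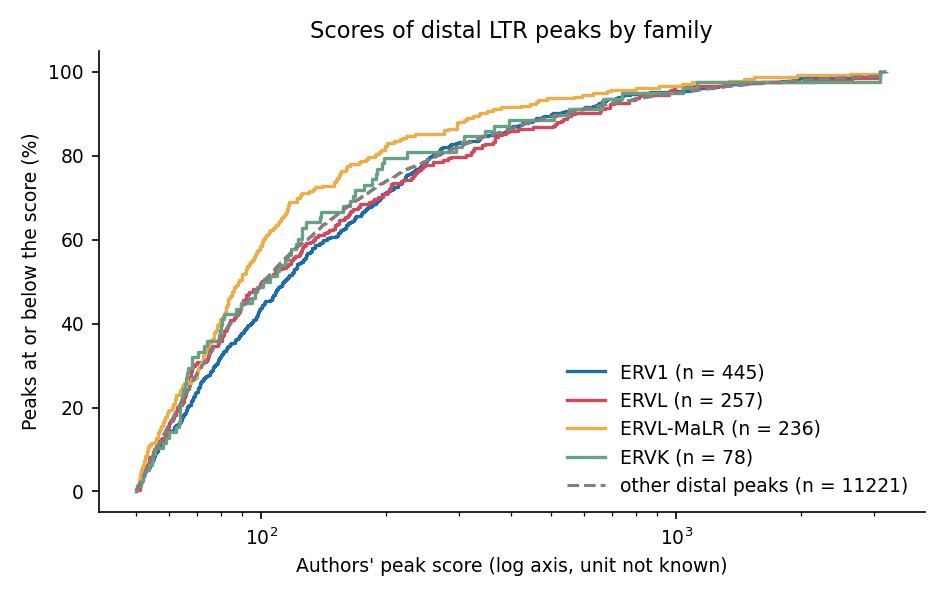
Cumulative share of distal LTR peaks (vertical axis, percent) at or below each authors' peak score (horizontal, log axis) for ERV1, ERVL, ERVL-MaLR and ERVK, with the other distal peaks as a dashed line. The ERVL-MaLR curve runs above the others from its median of 88.2 over most of the upper range, and the ERV1 curve, with a median of 114, lies below the others over the lower scores.

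The families differed in base composition and in the conservation of their peaks. The median GC fraction was 0.433 in ERVK, 0.419 in ERV1, 0.407 in ERVL and 0.392 in ERVL-MaLR, against 0.393 in other distal peaks and 0.358 in distal LINE peaks. The density of CpG dinucleotides, which the authors gave as a fraction, had a median of 0.0111 in ERVK, against 0.00687 in ERV1, 0.00567 in ERVL and 0.00534 in ERVL-MaLR. The authors' mean conservation, which runs between 0 and 1, had a median of 0.12 in ERVK (quartiles 0.07 and 0.19) and 0.10 in ERV1 (0.04 and 0.14). In ERVL and ERVL-MaLR it was 0.03 in both, with upper quartiles of 0.07 and 0.06. Other distal peaks had a median of 0.06. The labels do not name the species behind this conservation score. The peak score had a weak positive relation to GC fraction, with a Spearman correlation of 0.23 over the 1036 LTR peaks and 0.26 over the 11221 other distal peaks, and a somewhat closer one to peak width (0.41 and 0.40). These correlations describe peaks of 1 list that share libraries and depth.

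**Figure D4:**
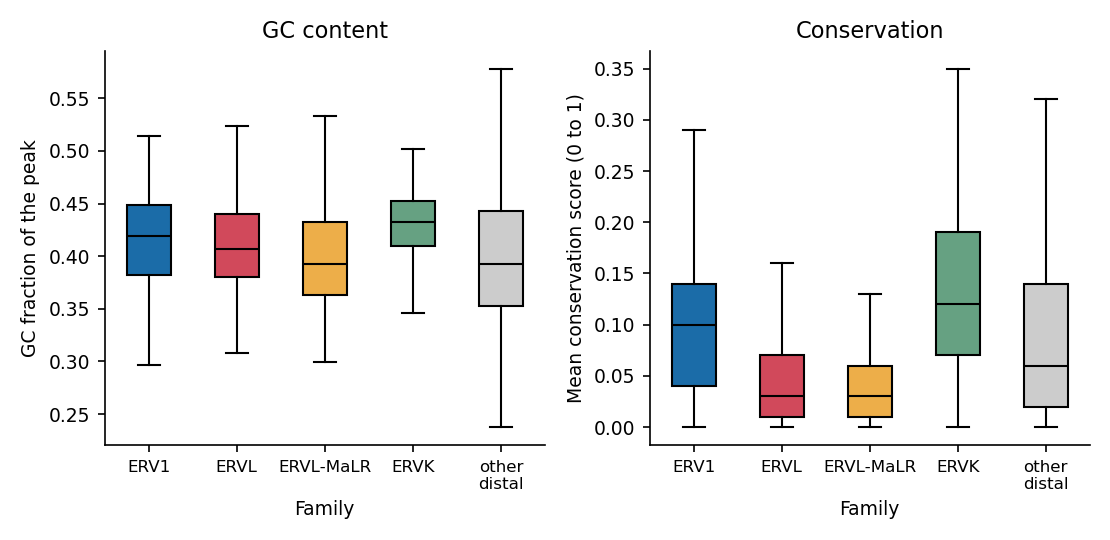
GC fraction (left) and the authors' mean conservation score (right) of distal LTR peaks in ERV1, ERVL, ERVL-MaLR and ERVK and of other distal peaks. Boxes span the quartiles with the median as a line, whiskers reach the last peak within 1.5 box lengths, and more distant peaks are not drawn. ERVK and ERV1 peaks had median conservation of 0.12 and 0.10, against 0.03 in both ERVL and ERVL-MaLR.

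The intergenic share was 77.0% in ERVL, 75.7% in ERV1, 73.7% in ERVL-MaLR and 71.8% in ERVK, with overlapping intervals. The median distance to the TSS was 56.8 kb in ERVK, 74.8 kb in ERV1, 97.9 kb in ERVL-MaLR and 108 kb in ERVL. Of the 78 ERVK peaks 37 lay at 10 to 50 kb and 4 beyond 500 kb, while 82 and 35 of the 257 ERVL peaks did.

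Internal proviral parts held 217 of the 1036 peaks (20.95%, 18.5 to 23.6) and LTRs proper 819. Names that end in -int, or begin with HERV or ERV, were counted as internal. In ERV1 137 of 445 peaks were internal, in ERVL 48 of 257, in ERVL-MaLR 18 of 236 and in ERVK 14 of 78. Over all families the median score was 99.5 in internal parts and 101 in LTRs, and 9.68% (6.09 to 14.4) and 7.81% (6.07 to 9.87) were in the top 10%. Within ERV1 the corresponding medians were 121 and 112, with 16 of 137 internal peaks (11.7%, 6.83 to 18.3) and 23 of 308 LTR peaks (7.47%, 4.79 to 10.99) in the top 10%. In ERVL the internal peaks had the lower median, 78.2 (67.5 to 116) against 107.7 (92.0 to 133.1) in LTRs. Of these internal peaks 89.6% were intergenic (77.3 to 96.5), against 74.2% (67.7 to 79.95), and both pairs of intervals overlap.

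The peaks spread over 271 element names, of which 118 had a single peak and 24 had 10 or more, the latter with 404 peaks together. The most frequent was MLT1J, an ERVL-MaLR element, with 31 peaks on 16 chromosomes, a median score of 86.8 and a range up to 1952. LTR8 (ERV1) had 30 peaks with a median of 124, and MER50 (ERV1) 27 with a median of 120. MER11B, the LTR of a betaretrovirus-like family and the most frequent ERVK name, had 26 with a median of 97.2. Of the ERVL names, LTR40a had 23 peaks with a median of 131 and LTR33 21 with a median of 149. MLT1K had 20 peaks (median 88.2), MER50-int 18 (225), ERVL-E-int 17 (90.3), HERV17-int 17 (204.5), LTR16A 17 (100.3) and MER39 15 (106). These 12 names hold peaks on 8 to 16 chromosomes each, so that none of their counts comes from 1 locus.

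Among the internal parts, HUERS-P3-int had the highest median score, 1309, of any name with 5 or more peaks. It is singled out after its values were seen. HUERS-P3 is a gammaretrovirus-like ERV1 provirus. Its 9 peaks, on 9 chromosomes, scored 3100, 2886, 2528, 1792, 1309, 389, 193, 97.7 and 71.4. The leading 5 pass the top 10% threshold (55.6%, 21.2 to 86.3). The other 4 spread from 389 down to 71.4, where the median of all peaks was 106.3. With 9 peaks the interval of the median is wide (97.7 to 2886) and includes that of all peaks. The strongest lay on chromosome X, 26801035 to 26803165, 226 kb from the pseudogene VENTXP1, the next on chromosome 1, 102899391 to 102900756, 437 kb upstream of OLFM3, which encodes an olfactomedin. The peak of 2528 was on chromosome 2, 118227419 to 118228935, 344 kb upstream of the RNA helicase gene DDX18, and that of 1792 on chromosome 3, 141998164 to 141999717, 54.5 kb upstream of GK5, a glycerol kinase gene. The related HUERS-P3b-int had 10 peaks with a median of 175, from 54.5 to 1319, 3 of them in the top 10%. LTR9 and LTR9B, the LTRs assigned to this group, had 3 peaks with a median of 61.7.

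MER50-int, the internal part that belongs to the MER50 LTRs, had the highest median among the names with 10 or more peaks. Its 18 peaks ran from 70.5 over a median of 225 to 3100, with 5 in the top 10%, namely 3100, 3100, 2687, 1113 and 744. The MER50 LTRs themselves, MER50 and MER50B, had 32 peaks with a median of 120, 3 in the top 10% and a maximum of 774. The internal part thus held fewer peaks and had the higher maximum, with ranges that overlap. The interval of its median (81.4 to 744) contains that of the MER50 LTRs (83.3 to 177). The shares in the top 10%, 27.8% (9.695 to 53.5) and 9.375% (1.98 to 25.02), also have overlapping intervals. A difference in strength between internal part and LTRs therefore does not follow from these values. The MER50-int peaks of 3100 were in intron 3 of 17 at FGD3 (chromosome 9, 95747984 to 95749683), and in intergenic sequence 209 kb from FAM47A (chromosome X, 33940469 to 33942806). That of 2687 lay 77.8 kb from C14orf132 (chromosome 14, 96582368 to 96584597), and that of 744 lay 20.1 kb upstream of PRKAR1A, a regulatory subunit gene of protein kinase A (chromosome 17, 66487139 to 66488858).

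HERV17-int, the internal part of the HERV-W group to which the syncytin-1 gene belongs, had 17 peaks on 8 chromosomes. They scored from 52.2 over a median of 204.5 to 589. The interval of this median (77.8 to 273.9) includes the median of all peaks, 106.3. Of these 17 peaks 0 reached the top 10%, with an upper limit of 19.5%. Their median GC fraction of 0.469 was the highest among the names with 10 or more peaks. LTR17, the LTR of the same provirus, had 0 of the 1036 peaks, which allows a share of up to 0.290% by the limit of 3 counts. At one locus near the adhesion gene NRCAM a pair of HERV17-int peaks stood 2239 bp apart, with scores of 589 and 54.4.

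**Figure D5:**
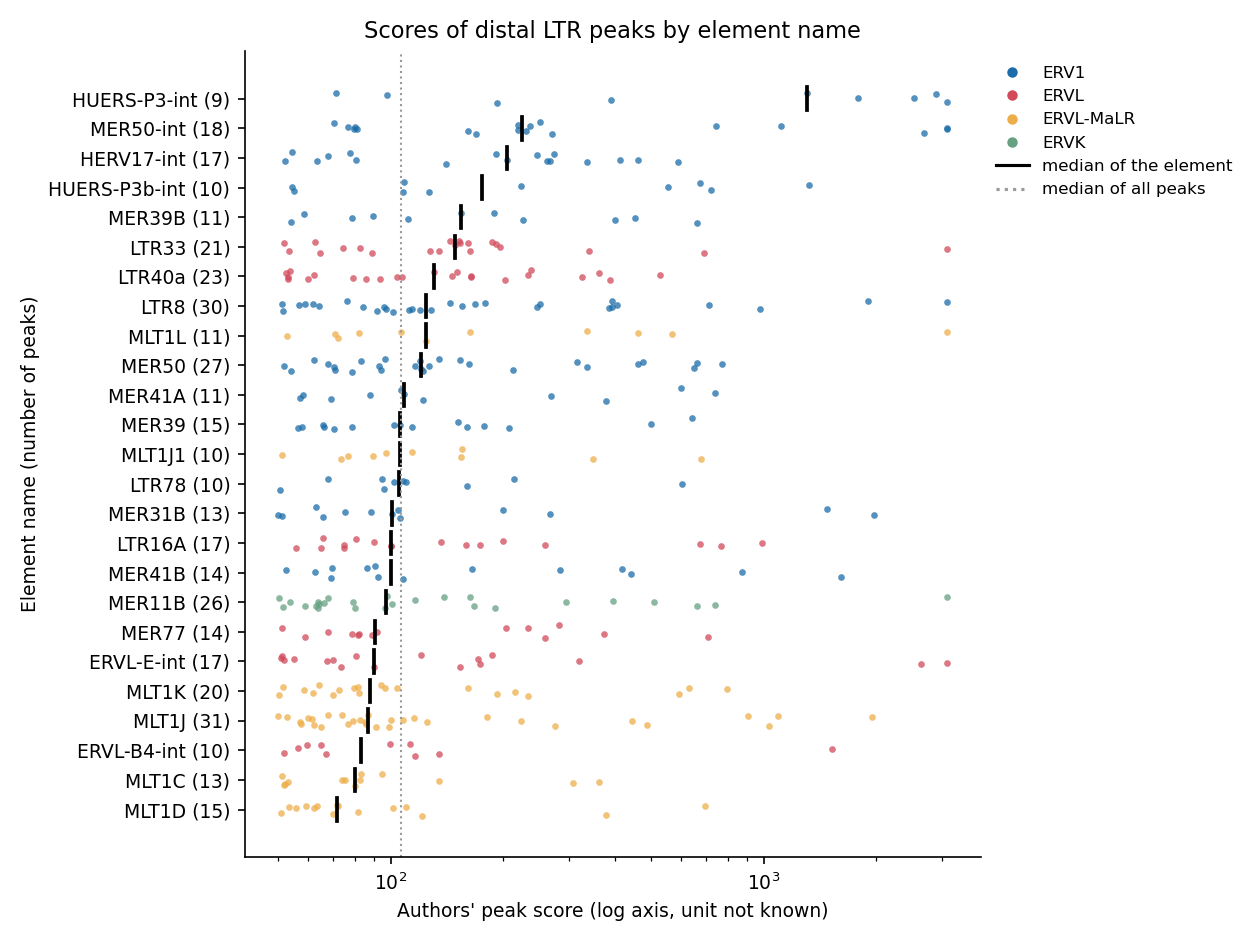
Authors' peak score (log axis) of each distal LTR peak in the 24 element names with 10 or more peaks and in HUERS-P3-int, ordered by median and coloured by family, with the number of peaks in brackets. Black bars are medians, and the dotted line is the median of all peaks, 106.3. HUERS-P3-int has a median of 1309 and MER50-int of 225, while most names have medians between 70 and 160 and single peaks far above them.

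The MER11, MER41, LTR8, LTR16 and LTR10 groups, picked after their values were seen, had medians between 99.2 and 113. Groups outside this choice lay both within that range, as MER39 (112.5) and LTR40 (107.1), and outside it, as LTR33 (131) and MER77 (90.5). Within the LTR8 group the median was 124 in 30 LTR8 peaks and 72.1 in 8 LTR8A peaks, with overlapping intervals. The MER11 LTRs had 44 peaks with a median of 105.7, and the MER41 LTRs 31 with a median of 106.5. LTR8 and LTR8A together had 38 with a median of 106.8, and the LTR16 group 40 with a median of 99.2, of which 90.0% were intergenic. The LTR10 group, known for sites of the tumour suppressor p53, had 10 peaks with a median of 113 and a maximum of 1979, an LTR10C peak. Single strong peaks stood out of most of these groups, with maxima of 3100 in MER11 and LTR8 and 1613 in MER41. Some younger primate groups, picked after their values were seen, had few peaks in this list or none. LTR7 variants had 2 peaks and LTR5 variants 2, and the HERVH internal part, HERVK-int and LTR12 had 0 each, against 44 in MER11. Neither their genomic copy numbers nor the mapping of 50 bp reads to repeated copies was examined. These low counts therefore do not show that binding was absent.

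Within the ERVL-MaLR elements, the old MLT1 LTRs held 200 of the 236 peaks, the younger MST LTRs 12 and the still younger THE1 LTRs 6. MLT1 peaks had a median of 92.3, a maximum of 3100 and 13 of 200 in the top 10% (6.50%, 3.51 to 10.9). The MST peaks had a median of 60.2 and a maximum of 99.5, and the THE1 peaks a median of 76.5 and a maximum of 114.5, so that 0 of either kind was in the top 10%. Counts of 12 and 6 are small, and the upper limits of these shares are 26.5% and 45.9%. Along the MLT1 letters, names A to E had medians between 61.2 and 80.4, and F to L between 88.2 and 124. The cut between E and F lies where the medians themselves part. The intervals of the medians overlap across it, as in A (72.4 to 108) and E (63.4 to 160) against J (79.4 to 115.5) and K (69.9 to 193). A trend along the letters therefore does not follow from these medians. The median GC fraction was mostly higher past the same cut, at 0.358 to 0.389 in A to E and 0.388 to 0.448 in F to L. The part of the GC fraction in the scores was not tested. The letters M and N had 2 and 3 peaks with medians of 200 and 336.

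The 11 distal LTR peaks at 3100 lay in 10 element names of 4 families. Besides the MER50-int and HUERS-P3-int peaks, the ERV1 element LTR8 held one 73.4 kb upstream of NLGN4X, a synaptic adhesion gene (chromosome X, 6218848 to 6221376). In ERVL, LTR53 held one 792 kb upstream of the Golgi mannosidase gene MAN1A1 (chromosome 6, 120462295 to 120464417). LTR40b held one 1142 kb from the pseudogene RAB9BP1 (chromosome 5, 105576638 to 105578115), and ERVL-E-int one 32.6 kb upstream of DIPK1A, FAM69A in the table (chromosome 1, 93458861 to 93460532).

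In ERVK, HERVK14C-int held one of the 3100 peaks, 14.2 kb upstream of TMC5, a gene of the transmembrane channel-like family (chromosome 16, 19406356 to 19409445). A peak of 70.6 in LTR14C, the LTR of the same provirus, stood 2552 bp away. MER11B held another in an intron (2 of 29) 19.5 kb from RNF133, a ubiquitin ligase gene (chromosome 7, 122318939 to 122320525). In ERVL-MaLR, MLT1L held the peak of 3100 upstream of the non-coding gene PCAT18, at 38.3 kb (chromosome 18, 24320373 to 24323432). Below these stood an ERVL-E-int peak of 2645, 91.1 kb upstream of ASPH, which encodes an aspartate hydroxylase (chromosome 8, 62717638 to 62718943). An MLT1N2 peak of 2619 lay 70.7 kb from the spliceosome gene SNRPE (chromosome 1, 203900440 to 203902498). At the 10 kb limit, the nearest members scored 54.5, 56.8 and 181 at 10.1 to 10.2 kb, and the LTR peaks just outside it 87.6, 169 and 52.2 at 9.80 to 9.89 kb.

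Like the other distal peaks, distal LTR peaks were mostly isolated. Another ERRγ peak of any kind was centred within 10 kb of 222 of the 1036 LTR peaks (21.4%, 18.97 to 24.1), against 2909 of 11221 other distal peaks (25.9%, 25.1 to 26.8). The median distance to the nearest other peak was 41.4 kb and 31.3 kb. Neighbouring distal LTR peaks within 10 kb of each other formed 15 pairs, 11 of them within the same family and 3 with the same element name. The 3 were HERV17-int at NRCAM, LTR49-int in DPP10 and MER21-int near TRIM24, with scores of 853 and 55.7 in the last.

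Among chromosomes with 100 or more distal peaks, the LTR share was highest on X, with 45 of 297 (15.2%, 11.3 to 19.7), and on 19 with 16 of 120 (13.3%, 7.82 to 20.8). It was lowest on 22, with 6 of 135 (4.44%, 1.65 to 9.42), and on 17, with 16 of 283 (5.65%, 3.27 to 9.02). Chromosome 4 had 71 of 603 (11.8%, 9.31 to 14.6). Chromosome 5 had the largest number, 84, and chromosomes 3 and 8 had 79 each. The intervals of X and 4 lay above the share of 8.45% over all distal peaks, and that of chromosome 1, with 66 of 1034 (6.38%, 4.97 to 8.05), lay below it, while those of 22 and 17 include it. These intervals were read over all chromosomes, with no allowance for their number. Neither the length of LTR sequence on each chromosome nor the copy number of each chromosome in these cells was used here.

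The authors' nearest-gene annotation tied the 1036 peaks to 882 genes, 766 of them with 1 peak, 86 with 2 and 30 with 3 or more. A protein-coding gene was nearest for 890 peaks. As the nearest TSS is far, the gene named is a label of position. The genes below were picked from the 882 for having 3 or more LTR peaks, which genes with many distal peaks reach more readily. Over all distal peaks the LTR share was 8.45%. Given this choice, the fractions of single genes do not show an excess of LTR peaks. CA10, a carbonic anhydrase-related gene on chromosome 17, was named by 5 LTR peaks of 27 distal ones, in MER4B-int, MLT1E3, THE1D, LTR33 and LTR82B, with scores of 67.2 to 193. The luminal transcription factor gene TRPS1 had 4 of 55, with scores of 51.98 to 118. The cadherin gene CDH18 had 4 of 44 and PRDM9, a meiotic histone methyltransferase gene, 4 of 22. FBXO33, of an F-box protein, had 4 of 35, the synaptic gene LRFN5 4 of 18 and the non-coding gene LINC01098 4 of 60.

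The strongest LTR peak of the genes with 4 or 5 such peaks was a MER70A peak of 971 in intron 1 of LRFN5, at 29.5 kb. The dehydrogenase gene DHRS2 had 3 LTR peaks of 4 distal ones, in MER90a, LTR33 and HERV3-int, within 17.8 to 58.6 kb and with scores of 97.99 to 218. For GPR6, a G protein-coupled receptor gene, all 3 distal peaks were in LTR elements (HERV3-int, MER50 and LTR15, scores of 55.7 to 189). MED13L, a subunit gene of the Mediator kinase module, had 3 of 6, with 341 in an LTR33 22.05 kb upstream. The kynureninase gene KYNU had 3 of 4, all intronic, led by a HERV17-int peak of 274.

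In 5 gene groups of interest for ERRγ and for luminal cells, 0 to 9 distal peaks per group were in LTR elements. The groups were chosen with earlier results on this list known, and are set beside the 8.45% over all distal peaks. Of 39 distal peaks named for the 50 energy metabolism genes, 0 were in LTR elements. A count of 0 allows a share of up to 7.69% by the limit of 3 counts, and the exact interval reaches 9.03%, which includes 8.45%. The 30 epithelial transcription factor genes had 2 of 87 (2.30%, 0.280 to 8.06), in MER39B at 360 kb from ID4, an inhibitor of helix-loop-helix factors (189), and in MamGypLTR1b at 41.5 kb from HES1, a Notch target (64.9). The 20 growth factor receptor and kinase genes had 1 of 34 (2.94%, 0.0744 to 15.3), a MER50 peak of 337, 71.3 kb upstream of the receptor tyrosine kinase gene KIT.

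Luminal and estrogen response genes had 9 LTR peaks among 190 distal ones (4.74%, 2.19 to 8.80), named for CA12, NRIP1, PRLR, TBX3 and TRPS1. The strongest was an MLT2B4 peak of 229, 234 kb from NRIP1, a corepressor gene of nuclear receptors (chromosome 21, 16202328 to 16203375). An LTR10A peak of 224 lay 14.01 kb upstream of CA12, a carbonic anhydrase gene (chromosome 15, 63687499 to 63688676). An MLT1F peak of 110.4 lay 83.5 kb upstream of PRLR, the prolactin receptor gene. Nuclear receptor genes had 3 of 63 (4.76%, 0.993 to 13.3), in LTR44 near NR2E3 (679), LTR3A near NR2C2 (177) and PABL_A-int near HNF4G (82.5). Except for the epithelial transcription factor group, with its upper limit of 8.06%, the exact intervals of these lists include 8.45%.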

How the data were processed

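ERRγ ChIP-seq of BT-474 cells was measured in 2 ERRγ libraries and 1 input library, read as 50 bp single reads per the labels. BWA 0.5.9, MACS 1.4.1, HOMER 3.18 and hg19 are named in the submitters' processing notes, which give no role for each. No source used here gives the peak threshold or the pooling of libraries. The deposited score has no stated unit. The deposited GC content is a fraction, and CpG content and the conservation score also run between 0 and 1, per the file headers and the values. Distances to the TSS and peak bounds were used as the authors deposited them. Among 7818 pairs of neighbouring peaks with the same promoter, 7811 differed in distance as their centres do, within 2 bp.

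From these, peaks were grouped by the repeat class, family and name in the detailed annotation. LTR peaks were those whose class was given as LTR without a question mark. Question marks were dropped from families and from the other classes, and element names were kept as given. Counts, medians, quartiles and the intervals of shares and medians were computed with Python 3.11.15, pandas 2.3.3 and scipy 1.17.1. The intervals were tested on simulated data. Gene identifiers of 1034 of 1036 peaks matched a RefSeq table of GRCh38.p14, used for current symbols and biotypes and for no coordinate. No test between groups was made, since 1 list has no replicates.

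The members and lists were chosen with earlier results of these data known. By rule, the text names the 12 most frequent element names with 10 or more peaks, the most frequent of each family, the 15 highest peaks, genes with 3 or more peaks, and up to 4 peaks per gene list. Some genes and elements that the rule selects are given as counts only, and 1 of the highest peaks is not reported here. HUERS-P3b-int, LTR17 and the other groups of LTR names were added after their values were seen.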

Additional observations from a re-analysis of the deposited data

How the results depend on the processing

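No paired analysis was possible because the table holds 1 merged peak list with no value per library, and leaving out a library was not possible for the same reason. Of 72 alternative values for 9 results, 67 stayed within the 95% interval of the value reported. The alternatives were distances of 5 kb and 50 kb, the upper 50% of peaks by score, the top 5% in place of the top 10%, peaks within 500 bp merged, leaving out chromosomes 17 and 20, and leaving out entries with a question mark. Leaving out the tied peaks and leaving out chromosomes 8 and 14 were chosen after seeing the data. With the upper 50% of all peaks by score, ERV1 held 47.8% of 500 distal LTR peaks and ERVL-MaLR 17.8%, and the median score was 213.6, which that selection itself raises. Without the question marks the Gypsy share was 0.7805%. The share of distal LTR peaks in the top 5% of all peaks was 3.764%, against 5.01% of all peaks, a stricter threshold by construction. The share of peaks with an ERR response element, and its alternative window, were not run, since no sequence of the hg19 build was used here. Small families and single element names rest on few peaks, and the unknown depth limits how far weak peaks can be told from absent ones.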

Other observations

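The 123 LTR peaks within 10 kb of a TSS, which the account above leaves aside, had a median score of 122.5 and spread over 83 element names. Of these 8 were in the top 10% of all peaks (6.50%, 95% interval 2.85 to 12.4). They lay upstream of the TSS in 68.3% of cases, and 81 were intergenic. Their median GC fraction was 0.426, against 0.412 in the distal LTR peaks.

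Wide peaks of 2.5 kb or more were 61 of the 1036 distal LTR peaks (5.89%, 4.53 to 7.50) and 866 of the 11221 other distal peaks (7.72%, 7.23 to 8.23). The wide LTR peaks had a median score of 112 and 10 of them were in the top 10% (16.4%, 8.15 to 28.1). The wide peaks among the other distal peaks had a median of 138, and 153 of them were in the top 10% (17.7%, 15.2 to 20.4). Of the 5 LTR peaks named for CA10, 4 were wide, and of the 4 named for LINC01098, 3 were.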
